A study of Mus musculus with 12 samples.

Results

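The subunits of the mitochondrial respiratory chain and ATP synthase were followed by complex in tail skin papillomas that lacked or carried c-Fos. Members were taken by the start of their platform gene symbol. These were Nduf followed by a, b, c, s or v for complex I, Sdha to Sdhd for complex II, Uqcr for complex III, Cox4 to Cox8 for complex IV and Atp5 for complex V. Of 37632 probes on the array, 80 matched, for 72 symbols, and 78 of these probes, for 70 symbols, had a value on at least 1 array. Testing required values in at least 2 papillomas of each group, where a papilloma had a value only if both of its 2 arrays did. Testing was possible for 66 genes, 31 of complex I, 3 of complex II, 6 of complex III, 13 of complex IV and 13 of complex V. The symbols without a test were Ndufv2 and Cox8c, with no value on any array, and Ndufb6, Cox8b, Cox5b and Cox6b2, whose probes had values on 3, 5, 7 and 8 arrays. A pair of matches by letters name no subunit in current RefSeq. Cox4nb, for a neighbour of Cox4i1, is now Emc8, and Atp5s is now Dmac2l, and both were kept in the counts and are marked where they matter.

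The samples were 3 c-Fos-deficient papillomas (specimens 6, 8 and 9), whose epidermis lacks both Fos alleles, and 3 c-Fos-floxed papillomas (specimens 2, 3 and 5), whose floxed Fos alleles are active. In both groups basal keratinocytes expressed a transgene for active Sos, which loads Ras with GTP, from the promoter of keratin 5, and the genetic background was mixed. The deletion is confined to the epidermis by design, so stromal and immune cells of a papilloma keep Fos, and the sources used here do not name the Cre line, the age or the sex of the mice. RNA of each papilloma was hybridised on 2 arrays with exchanged dyes against a common reference RNA pooled from mouse cell lines, so values are log2 ratios of papilloma over that RNA, and a papilloma counted once, as the mean of its 2 arrays. A ratio compares papillomas with each other for 1 gene, and does not rank genes by abundance.

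Fos itself was at -4.01, -4.43 and -3.91 in c-Fos-deficient specimens 6, 8 and 9, against -1.30, -0.56 and -1.56 in c-Fos-floxed specimens 2, 3 and 5, on 1 probe whose place relative to the deleted part is not known here. The difference was -2.98 (SE 0.29), with an adjusted p of 0.183 in limma, the smallest of all features tested here, so no feature passed. Keratinocyte genes marked all papillomas, with medians of 5.35 in c-Fos-deficient and 5.49 in c-Fos-floxed papillomas for 8 differentiation genes.

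Mitochondria make ATP by passing electrons from NADH through complex I, or from succinate through complex II, to coenzyme Q, then through complex III and cytochrome c to complex IV, which reduces oxygen. Complexes I, III and IV pump protons across the inner membrane, and complex V, the ATP synthase, lets them flow back to drive ATP synthesis. Complexes I, III, IV and V are built from subunits of nuclear and of mitochondrial DNA, whereas complex II is wholly nuclear. All members described here are nuclear genes, and the mitochondrially encoded subunits were not analysed here.

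Most members were higher in c-Fos-deficient papillomas, by small amounts, and none passed the test across all features. The difference, c-Fos-deficient minus c-Fos-floxed, was above 0 for 56 of 66 members, where 55.1% of 18861 features lay above 0. Its median over members was 0.21 on the log2 scale, against 0.025 over all features. In limma with Benjamini-Hochberg adjustment 0 of 66 members had an adjusted p under 0.05, beside 0% of all features. At an unadjusted p under 0.05 there were 17 members, all higher and 25.8% of those tested, beside 4.55% of all features that were higher at this p and 7.31% that were lower. These 17 differed by 0.21 to 1.07, and their adjusted p in limma lay between 0.198 and 0.383. Each was above 0 in both dye orientations, but they were picked on the mean of both, so this is no separate evidence. Among 64 members with a value in every papilloma, 20 had all c-Fos-deficient above all c-Fos-floxed values and 0 the reverse, and the background shares were 10.9% and 9.09%. An exact two-sided permutation test of such a gene gave p = 0.1, the smallest that 3 papillomas against 3 allow.

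The count of 17 depended on single papillomas. It was 9 of 66 without c-Fos-floxed specimen 2 or without specimen 3, beside 2.54% and 2.94% of all features higher in those fits, and 11 of 64 without c-Fos-deficient specimen 8, beside 3.76%. Among the fits without 1 papilloma the share was highest without c-Fos-deficient specimen 9, at 20 of 65 members beside 7.74% of features. In bulk tissue, fewer cells of a type and less RNA per cell cannot be told apart.

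By complex, the median difference was 0.22 for complex I, 0.55 for complex II, 0.14 for complex III, 0.14 for complex IV and 0.14 for complex V. An unadjusted p under 0.05 was reached by 7 of 31 genes of complex I, 2 of 3 of complex II and 0 of 6 of complex III. It was reached by 5 of 13 of complex IV and 3 of 13 of complex V. All of these were higher, beside 4.55% of all features higher and 7.31% lower. Cox4nb is among those 5 of complex IV and Atp5s among those 3 of complex V, and neither names a subunit. Complex IV had no member below 0, while 4 of complex I, 2 of complex III and 4 of complex V were. Whether complexes differ from each other was not tested, since they hold few genes and these share the same 6 papillomas. Single papillomas moved several medians by more than 1.5 times. Complex III was at 0.063 without c-Fos-deficient specimen 8 and at 0.056 without specimen 9. Complex IV was at 0.23 without c-Fos-deficient specimen 6 and, to the same rounding, without c-Fos-floxed specimen 3. Complex V was at 0.092 without c-Fos-deficient specimen 8, at 0.082 without c-Fos-floxed specimen 3 and at 0.076 without Atp5s.

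**Figure D1:**
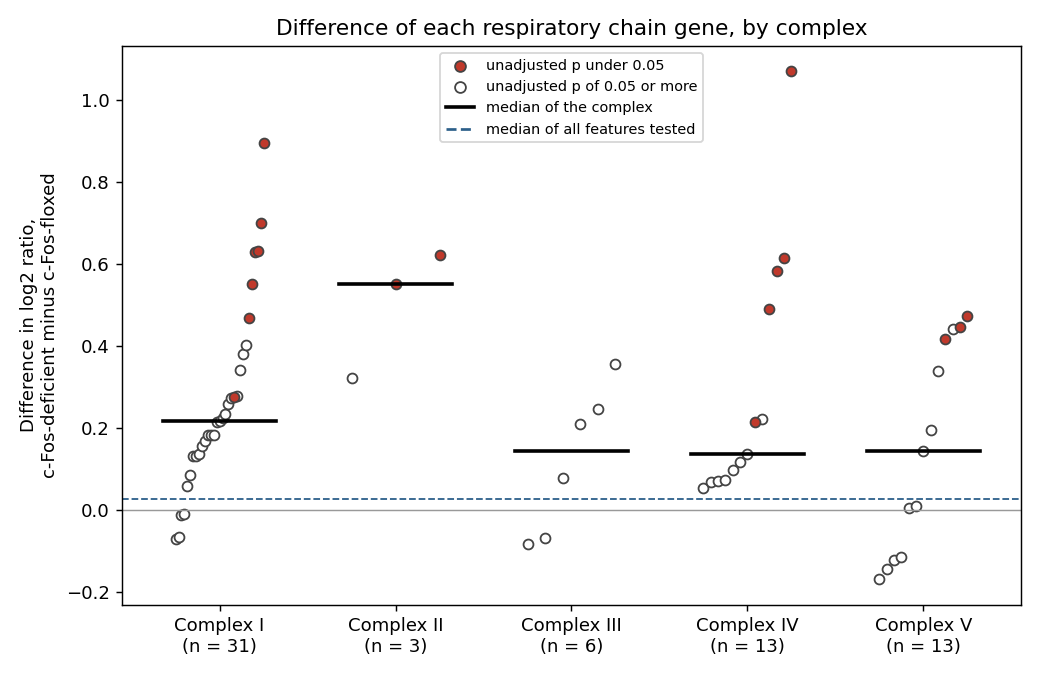
Each point is 1 gene and the vertical axis is its difference in log2 ratio, c-Fos-deficient minus c-Fos-floxed, with genes grouped by complex on the horizontal axis. Filled points have an unadjusted limma p under 0.05, black bars are medians by complex (0.55 in complex II, 0.14 to 0.22 elsewhere), and the dashed line is the median of all features at 0.025.

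Specimen 8 was the highest papilloma in complexes I, IV and V, specimen 6 in complex II and specimen 9 in complex III. For this each gene was set relative to its mean in c-Fos-floxed papillomas, and the median over the genes of a complex was taken in each papilloma. For complex I these medians were 0.0795, 0.37 and 0.20 in c-Fos-deficient specimens 6, 8 and 9, against -0.03, -0.05 and 0.0793 in c-Fos-floxed specimens 2, 3 and 5. Specimen 6 was level with the highest c-Fos-floxed papilloma. Complex II was at 0.79, 0.64 and 0.17 in c-Fos-deficient specimens 6, 8 and 9, against 0.04, -0.09 and 0.04 in c-Fos-floxed specimens 2, 3 and 5. Here specimen 6 was the highest and the groups did not overlap. Complex IV was at 0.16, 0.33 and 0.16 in c-Fos-deficient papillomas, against -0.005, -0.11 and 0.10 in c-Fos-floxed papillomas, in the same specimen order, again without overlap. On the arrays with the papilloma in Cy3 its groups did overlap, at 0.15 in c-Fos-deficient specimen 9 and 0.19 in c-Fos-floxed specimen 5. Complex III was at -0.06, 0.17 and 0.19 in c-Fos-deficient papillomas, against -0.02, -0.06 and 0.04 in c-Fos-floxed papillomas. Complex V was at 0.12, 0.36 and 0.22 in c-Fos-deficient papillomas, against -0.02, -0.12 and 0.15 in c-Fos-floxed papillomas. In both of these complexes specimen 6 fell within the c-Fos-floxed range. Over all 16209 features with complete values the medians stayed between 0.008 and 0.042 in c-Fos-deficient and between -0.015 and 0.009 in c-Fos-floxed papillomas. Of the 66 members, 38 had their highest c-Fos-deficient value in specimen 8 and 34 their highest c-Fos-floxed value in specimen 5.

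**Figure D2:**
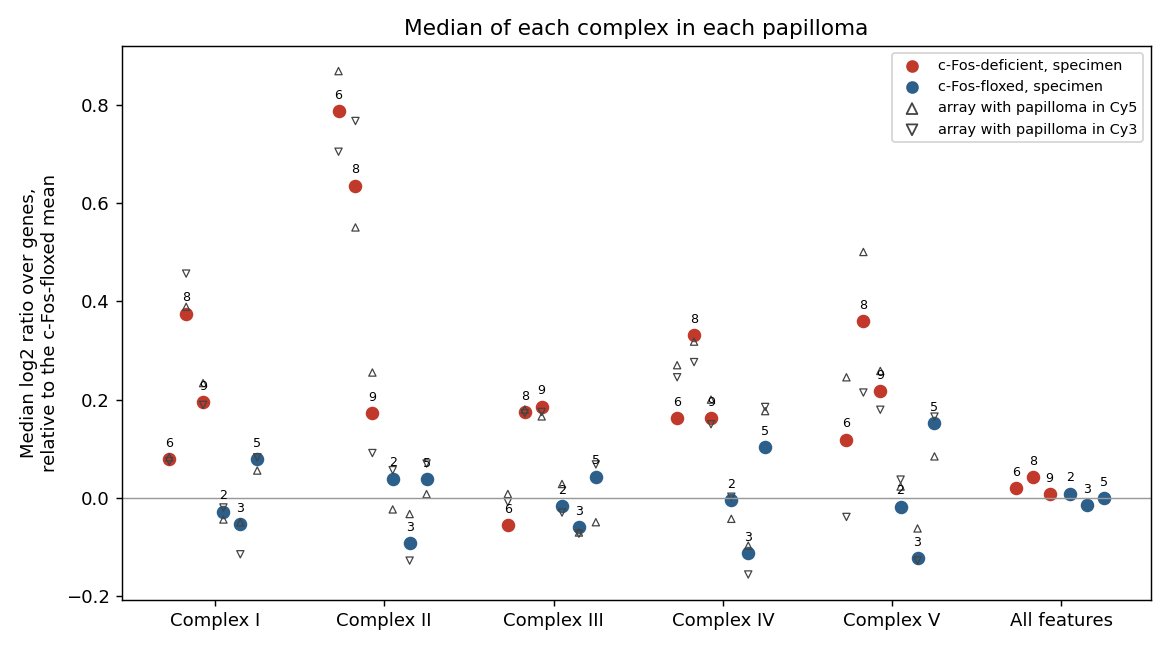
Large points give, for each papilloma (numbered), the median over the genes of a complex of the log2 ratio relative to the c-Fos-floxed mean, and triangles give the 2 arrays of that papilloma. The large points of c-Fos-deficient papillomas lie above the c-Fos-floxed ones without overlap in complexes II and IV. They overlap in complexes III and V, while all features stay near 0. In complex IV the Cy3 arrays of c-Fos-deficient specimen 9 (0.15) and c-Fos-floxed specimen 5 (0.19) overlap.

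Both dye orientations gave similar counts of higher members, while complexes IV and V differed in part. The difference was above 0 in both orientations for 48 members, below 0 in both for 4 and of opposite sign for 14. With the papilloma in Cy5 alone 19 of 69 members had an unadjusted p under 0.05 and were higher, beside 4.74% of all features in that fit. With it in Cy3 alone there were 15 of 66, beside 4.93%. In complex V the medians of c-Fos-deficient papillomas differed by orientation, with 0.25 in Cy5 and -0.04 in Cy3 for specimen 6 and 0.50 in Cy5 and 0.21 in Cy3 for specimen 8. In complex IV the specimen medians of the groups overlapped in Cy3, as given above, and not in Cy5.

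Promoters of 4 genes are shown because these genes had large differences in their complexes and their windows hold, or lack, motifs known from respiratory chain promoters. Ndufb4 and Ndufs7 are of complex I, Sdhd of complex II and Cox7a2 of complex IV. Each window runs from 250 bases before to 50 bases after the RefSeq start in build GRCm38.p6, on the strand of the gene. The windows are chr16:37654319-37654618 on the minus strand, chr10:80249199-80249498 on the plus strand, chr9:50603800-50604099 on the minus strand and chr9:79759804-79760103 on the minus strand. Capitals mark matches, on either strand, to any of 5 motifs spelled out in the next paragraph.
Ndufb4: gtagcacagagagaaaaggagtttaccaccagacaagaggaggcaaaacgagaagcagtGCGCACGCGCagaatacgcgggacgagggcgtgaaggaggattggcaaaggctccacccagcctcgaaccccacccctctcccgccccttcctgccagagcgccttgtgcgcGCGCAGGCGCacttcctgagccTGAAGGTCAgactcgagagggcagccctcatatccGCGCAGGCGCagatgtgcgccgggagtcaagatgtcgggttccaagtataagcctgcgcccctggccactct
Ndufs7: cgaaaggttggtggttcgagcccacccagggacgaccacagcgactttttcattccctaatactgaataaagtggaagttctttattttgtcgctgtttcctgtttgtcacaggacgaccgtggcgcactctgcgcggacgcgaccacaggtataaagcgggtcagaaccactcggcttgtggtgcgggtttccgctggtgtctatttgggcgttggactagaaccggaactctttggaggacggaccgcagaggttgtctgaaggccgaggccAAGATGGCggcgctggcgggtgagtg
Sdhd: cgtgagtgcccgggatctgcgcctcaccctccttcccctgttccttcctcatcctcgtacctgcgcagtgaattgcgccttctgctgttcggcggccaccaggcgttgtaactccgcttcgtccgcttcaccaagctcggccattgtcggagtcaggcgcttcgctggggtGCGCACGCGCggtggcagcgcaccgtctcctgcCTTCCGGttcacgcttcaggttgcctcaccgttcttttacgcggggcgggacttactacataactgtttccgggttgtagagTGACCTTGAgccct
Cox7a2: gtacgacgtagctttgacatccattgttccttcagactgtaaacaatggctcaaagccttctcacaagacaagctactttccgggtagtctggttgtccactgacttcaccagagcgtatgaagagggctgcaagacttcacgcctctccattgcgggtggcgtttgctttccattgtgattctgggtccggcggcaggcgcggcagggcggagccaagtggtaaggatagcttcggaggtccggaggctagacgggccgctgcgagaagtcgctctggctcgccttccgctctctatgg

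The motifs were GCGC and GCGC with any 2 bases between them for NRF1, a regulator of nuclear genes of mitochondria, CCGGAAG for the ETS factor GABP, AANATGGC for YY1, TNAAGGTCA for the ERR nuclear receptors and TGANTCA for AP-1, the dimer that Fos joins. A RefSeq window was found for 56 of the 66 members and for 9604 of the genes tested. The NRF1 motif lay in the windows of 28.6% of members and 13.5% of all these genes, the GABP motif in 23.2% and 17.4%, and the YY1 motif in 26.8% and 9.15%. The YY1 motif contains the letters ATG, and in windows without the 50 bases after the start its share of members was 8.93%. In such windows the shares of members were 21.4% for NRF1, 17.9% for GABP, 3.57% for ERR and 8.93% for AP-1. The shares of all genes in such windows were not computed, so these values have no background here. The ERR motif was present in 3 members, Ndufb4, Sdhd and Atp5g3, which is 5.36% against 0.95%. Of these Ndufb4 and Sdhd were among the higher members and Atp5g3 was at 0.004. The ERR match of Sdhd lies among the 50 bases after its start. The AP-1 motif was found in 10.7% of members and 7.1% of all genes, in 6 members. Members with the NRF1 motif had a median difference of 0.11 and members without it 0.22. The medians with and without the motif were 0.25 and 0.20 for GABP, 0.22 and 0.18 for YY1, 0.62 and 0.20 for ERR, with 3 members, and 0.28 and 0.20 for AP-1. The window of Cox7a2 matched none of these letters, and the match of Ndufs7, to the YY1 motif, lies among the 50 bases after its start. A match describes letters only, and no match says nothing of the factor.

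Complex I takes electrons from NADH and is the largest complex of the chain. Of its 4 catalytic core subunits that were tested, Ndufs7, which carries the last iron-sulfur cluster before coenzyme Q, stood apart. Its log2 ratios were 0.18, 0.03 and 0.001 in c-Fos-deficient specimens 6, 8 and 9, against -0.575, -0.46 and -0.40 in c-Fos-floxed specimens 2, 3 and 5. The groups did not overlap, and the difference of 0.55 (SE 0.09) had an unadjusted p of 0.00101 and an adjusted p of 0.198 in limma. The other core subunits were Ndufs1 at 0.18 (SE 0.12), Ndufs3 at 0.34 (SE 0.28) and Ndufv1, which binds NADH and flavin, at -0.07 (SE 0.41). Ndufv1 spread widely, with -0.64, -1.63 and -0.10 in c-Fos-deficient papillomas and -0.76, -0.40 and -0.99 in c-Fos-floxed papillomas. Without c-Fos-deficient specimen 8, its lowest, it was at 0.35.

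All 9 tested Ndufb subunits, which sit in the membrane arm of complex I, lay above 0, with a median of 0.28. Ndufb4 was the highest of complex I. It had 0.62, 0.98 and 0.95 in c-Fos-deficient specimens 6, 8 and 9, against -0.11, -0.16 and 0.14 in c-Fos-floxed specimens 2, 3 and 5. The lowest c-Fos-deficient value was thus well above the highest c-Fos-floxed value, and the difference was 0.90 (SE 0.14), or 1.86-fold, with an unadjusted p of 8.09e-04 and an adjusted p of 0.198 in limma. Ndufb3 at 0.47 (SE 0.16) and Ndufb10 at 0.28 (SE 0.10) also had an unadjusted p under 0.05, and the lowest was Ndufb11 at 0.06 (SE 0.07).

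Of 14 tested Ndufa subunits 11 lay above 0, with a median of 0.16. Ndufa12, an accessory subunit of the arm that binds NADH, had 0.05, 0.14 and -0.25 in c-Fos-deficient specimens 6, 8 and 9, against -0.55, -0.70 and -0.69 in c-Fos-floxed specimens 2, 3 and 5. Its groups did not overlap, and it differed by 0.63 (SE 0.12, unadjusted p of 0.00265 and adjusted p of 0.212 in limma). Ndufa5 differed by 0.70 (SE 0.21), with values of -0.66, 0.10 and -0.43 in c-Fos-deficient papillomas and of -1.08, -1.17 and -0.85 in c-Fos-floxed papillomas. Ndufa11 and Ndufa13 were at -0.01 each (SE 0.11 and 0.17), and their sign turned when arrays were centred on their median. Ndufab1, the mitochondrial acyl carrier protein that also serves complex I, was at -0.07 (SE 0.09). Ndufa4, named for complex I and now counted to complex IV, was at 0.16 (SE 0.13). Ndufa3 was at 0.08 (SE 0.12), and its 2 probes went opposite ways, at -0.16 and 0.33. Of the remaining accessory subunits Ndufc2 was at 0.63 (SE 0.17) and Ndufc1 at 0.21 (SE 0.10). Ndufs4 at 0.18 (SE 0.11) and Ndufs6 at 0.22 (SE 0.13) each had values in only 2 c-Fos-deficient papillomas.

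Complex II, succinate dehydrogenase, also works in the tricarboxylic acid cycle, and its 3 tested genes all lay above 0. Sdhb, the iron-sulfur subunit, had -0.30, -0.49 and -0.81 in c-Fos-deficient specimens 6, 8 and 9, against -1.08, -1.10 and -1.07 in c-Fos-floxed specimens 2, 3 and 5. The c-Fos-floxed values lay close together and below all c-Fos-deficient values. The difference was 0.55 (SE 0.14, unadjusted p of 0.00913 and adjusted p of 0.262 in limma). Sdhd, a membrane anchor, had 0.24, -0.14 and -0.62 in c-Fos-deficient papillomas, against -0.755, -0.90 and -0.72 in c-Fos-floxed papillomas. The groups did not overlap, specimen 9 came closest to the c-Fos-floxed papillomas, and the difference was 0.62 (SE 0.22, adjusted p of 0.376 in limma). Sdha, the flavoprotein, had -0.29, -0.02 and -0.69 in c-Fos-deficient papillomas, against -0.60, -0.74 and -0.61 in c-Fos-floxed papillomas. It overlapped through specimen 9 and differed by 0.32 (SE 0.18, adjusted p of 0.55 in limma). No symbol of the platform matched Sdhc.

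Complex III passes electrons from coenzyme Q to cytochrome c. None of its 6 tested genes had an unadjusted p under 0.05, beside 4.55% of all features higher and 7.31% lower. Uqcrh, the hinge protein, had -0.26, -0.12 and -0.54 in c-Fos-deficient specimens 6, 8 and 9, against -0.72, -0.79 and -0.47 in c-Fos-floxed specimens 2, 3 and 5. It was the highest of the complex at 0.355 (SE 0.15) and its groups overlapped (adjusted p of 0.431 in limma). Uqcr11, listed on the platform as Uqcr, was at 0.25 (SE 0.21), Uqcrb at 0.21 (SE 0.17) and Uqcrc1, a core protein, at 0.08 (SE 0.23). Uqcrfs1, the Rieske iron-sulfur protein, was at -0.07 (SE 0.08) and Uqcrq at -0.08 (SE 0.08). Uqcrfs1 lay between 0.08 and 0.21 in c-Fos-deficient and between 0.17 and 0.30 in c-Fos-floxed papillomas.

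**Figure D3:**
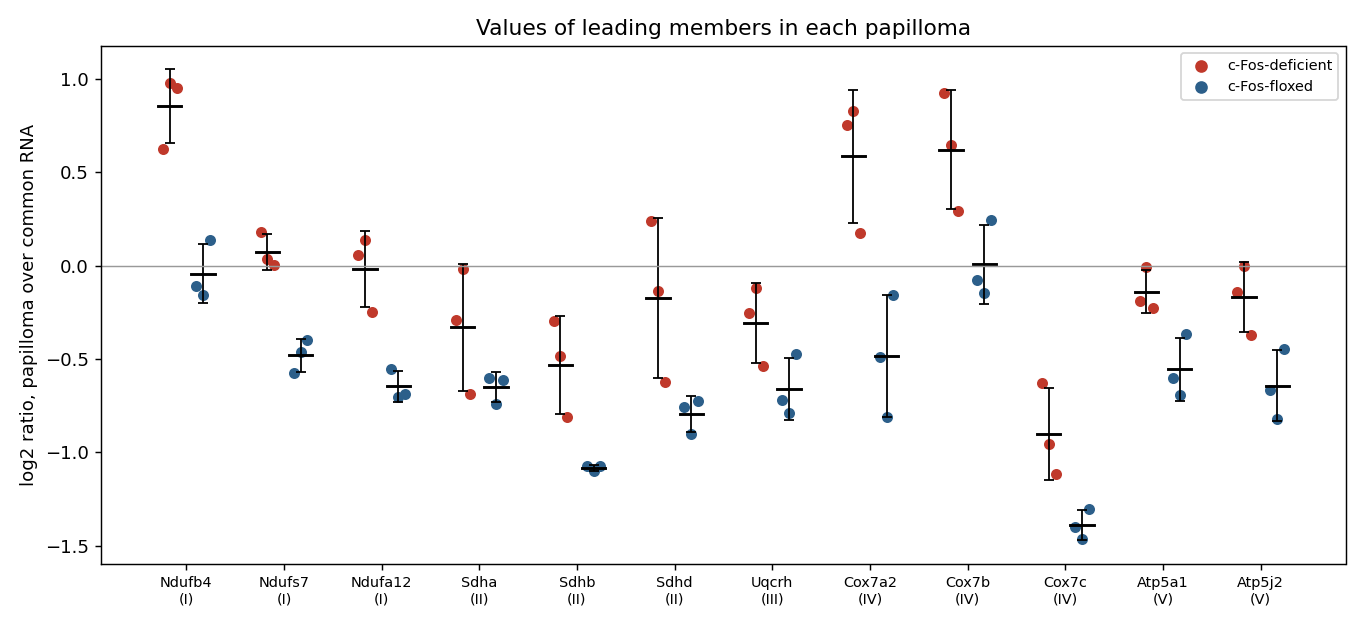
The vertical axis is the log2 ratio of papilloma over the common RNA for 12 genes with their complex in brackets, with 1 point per papilloma and bars for the mean and SD of each group (n = 3). Ndufb4, Ndufs7, Ndufa12, Sdhb, Sdhd, Cox7a2, Cox7b, Cox7c, Atp5a1 and Atp5j2 have no overlap between groups, and Sdha and Uqcrh overlap.

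Complex IV, cytochrome c oxidase, has several subunits that exist as forms of different tissues. The largest difference of all members was that of Cox7a2, the form of subunit 7a that most tissues use. It had 0.75, 0.83 and 0.18 in c-Fos-deficient specimens 6, 8 and 9, against -0.49, -0.81 and -0.16 in c-Fos-floxed specimens 2, 3 and 5. All c-Fos-deficient values were above 0 and all c-Fos-floxed values below it. The difference was 1.07 (SE 0.24), or 2.1-fold, with an unadjusted p of 0.00527 and an adjusted p of 0.233 in limma, and it lay between 0.91 and 1.28 over the alternatives. Cox7a1, the form of heart and skeletal muscle, was at 0.22 (SE 0.13), and Cox7a2l, a related protein of respiratory supercomplexes, at 0.07 (SE 0.24).

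Of the other small subunits of complex IV, Cox7b differed by 0.61 (SE 0.20), with 0.92, 0.65 and 0.29 in c-Fos-deficient specimens 6, 8 and 9, against -0.08, -0.15 and 0.25 in c-Fos-floxed specimens 2, 3 and 5. Cox7c differed by 0.49 (SE 0.14), with -0.63, -0.95 and -1.12 in c-Fos-deficient papillomas, against -1.40, -1.46 and -1.30 in c-Fos-floxed papillomas. Neither gene overlapped between groups, and specimen 6 was the highest in both. Cox6c was measured by 2 probes, at 0.66 and 0.50, and differed by 0.58 (SE 0.20). Its values were -0.13, -0.06 and -0.67 in c-Fos-deficient papillomas and -0.89, -1.07 and -0.64 in c-Fos-floxed papillomas, with an overlap of specimens 9 and 5. In limma Cox7b, Cox7c and Cox6c had an adjusted p of 0.324, 0.291 and 0.361. Subunits of the other families lay nearer to 0, with Cox4i1 at 0.07 (SE 0.11), Cox5a at 0.12 (SE 0.12), Cox6a1 at 0.07 (SE 0.19), Cox6b1 at 0.05 (SE 0.15) and Cox8a at 0.14 (SE 0.14). Cox6a2, a form of heart and skeletal muscle, was at 0.10 (SE 0.20). It lay between -2.20 and -2.09 in c-Fos-deficient and between -2.63 and -1.85 in c-Fos-floxed papillomas. Cox4nb was at 0.21 (SE 0.07). Without it and Atp5s 15 of 64 members had an unadjusted p under 0.05, all higher, beside 4.55% of all features higher.

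**Figure D4:**
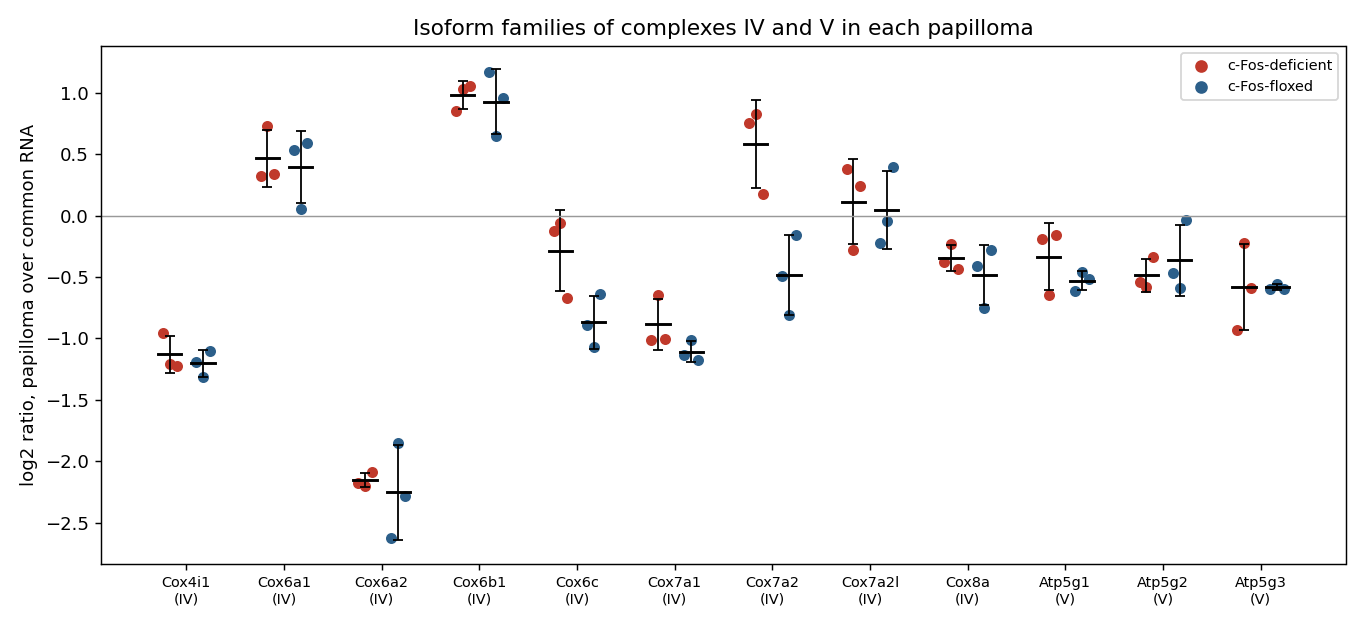
The vertical axis is the log2 ratio of papilloma over the common RNA for genes of isoform families of complexes IV and V, with 1 point per papilloma and bars for the mean and SD of each group (n = 3). For Cox7a2 all c-Fos-deficient papillomas are above 0 and all c-Fos-floxed papillomas below it, and the 3 Atp5g genes overlap between groups.

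In complex V the values are given by part, with 2 to 4 genes each, and differences between parts were not tested. In F1, the catalytic head, Atp5a1, the alpha subunit, had -0.19, -0.005 and -0.22 in c-Fos-deficient specimens 6, 8 and 9, against -0.60, -0.69 and -0.37 in c-Fos-floxed specimens 2, 3 and 5. Its groups did not overlap and it differed by 0.42 (SE 0.12, unadjusted p of 0.0134 and adjusted p of 0.281 in limma). Atp5b, the beta subunit that alternates with alpha in the same ring, was at -0.14 (SE 0.22), with -0.51, 0.02 and 0.13 in c-Fos-deficient papillomas and 0.18, -0.28 and 0.18 in c-Fos-floxed papillomas. These groups overlapped widely. Atp5d, the delta subunit, was the lowest of all members at -0.17 (SE 0.31), and its c-Fos-deficient values ranged from -0.67 in specimen 6 to 0.42 in specimen 9. Without specimen 9 it was at -0.51. Atp5e, the epsilon subunit, was at 0.14 (SE 0.10).

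The c ring of Fo, which turns with the proton flow, is encoded by Atp5g1, Atp5g2 and Atp5g3, which give the same mature protein. They were at 0.195 (SE 0.15), -0.12 (SE 0.17) and 0.004 (SE 0.18), and each overlapped between groups. Atp5g2 had opposite signs in the dye orientations, 0.21 in Cy5 and -0.46 in Cy3. In the peripheral stalk Atp5j was at 0.34 (SE 0.18), Atp5o at 0.009 (SE 0.115) and Atp5h at -0.12 (SE 0.31). Of the small membrane subunits, Atp5j2 was at 0.47 (SE 0.14, unadjusted p of 0.0181 and adjusted p of 0.309 in limma) and Atp5k at 0.44 (SE 0.20, unadjusted p of 0.074 and adjusted p of 0.473). Atp5j2 had -0.14, -0.0001 and -0.37 in c-Fos-deficient papillomas, against -0.66, -0.82 and -0.44 in c-Fos-floxed papillomas, without overlap. Atp5k had 2 probes, at 0.50 and 0.38, and overlapped through c-Fos-floxed specimen 5. Atp5s differed by 0.45 (SE 0.13).

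Against the common RNA the mean log2 ratio was below 0 for 59.1% of members in c-Fos-deficient papillomas (39 of 66) and for 71.2% in c-Fos-floxed papillomas (47 of 66). Over all features these shares were 52.9% in c-Fos-deficient and 52.7% in c-Fos-floxed papillomas, and the sign rests on the likely direction of the deposited ratio. The median over members was -0.13 in c-Fos-deficient and -0.35 in c-Fos-floxed papillomas, where all features were at -0.07 and -0.06.

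Other mitochondrial genes were counted by lists, which the rule of membership did not use. Over all features 55.1% lay above 0, and at an unadjusted p under 0.05 in limma 4.55% were higher and 7.31% lower. Of 37 assembly factors 24 lay above 0, 7 had an unadjusted p under 0.05 as higher and 0 as lower, and the median was 0.10. Ndufaf5, an assembly factor of complex I, had -0.43, -0.11 and -0.81 in c-Fos-deficient specimens 6, 8 and 9, against -1.51, -1.21 and -1.23 in c-Fos-floxed specimens 2, 3 and 5. These did not overlap and differed by 0.87 (SE 0.20), and on the lower side Coa7, an assembly factor of complex IV, was at -0.44 (SE 0.19). Coenzyme Q synthesis had 8 of 10 genes above 0 with 2 higher and 0 lower at this p, and a median of 0.21, with Coq9 at 0.41 (SE 0.08) and Coq10b at -0.31 (SE 0.13). Of 68 genes of the mitochondrial ribosome 47 lay above 0, and 14 were higher and 1 lower at this p. Their median was 0.10, and they included Mrps31 at 0.40 (SE 0.09) and Mrpl28 at -0.74 (SE 0.27). The electron carrier cytochrome c, Cycs, was at 0.60 (SE 0.18), and cytochrome c1 of complex III, Cyc1, at -0.05 (SE 0.10). None of these genes passed after adjustment in limma.

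Further lists, which include glycolysis and the cytosolic ribosome, were counted in the same way. Beside the counts that follow stand the same shares over all features, 55.1% above 0, 4.55% higher and 7.31% lower. Above 0 were 13 of 20 genes of the tricarboxylic acid cycle list and 12 of 18 of fatty acid oxidation. For regulators of biogenesis 10 of 16 were above 0, for protein import 10 of 14 and for the cytosolic ribosome 13 of 28. The tricarboxylic acid cycle list had 1 gene higher and 3 lower at an unadjusted p under 0.05 out of 20, with Fh1, fumarase, at 0.50 (SE 0.16) and Idh2 at -0.34 (SE 0.10). Fatty acid oxidation had 2 higher and 2 lower of 18. In that list Echs1 was at 0.69 (SE 0.15) and Acadl, the long-chain acyl-CoA dehydrogenase, at -0.95 (SE 0.12). Acadl had -0.81, -0.57 and -0.79 in c-Fos-deficient papillomas, against 0.36, 0.03 and 0.30 in c-Fos-floxed papillomas. Vdac1, a channel of the outer membrane, was at -0.60 (SE 0.14), and Slc25a5, an ADP/ATP carrier, at 0.37 (SE 0.11). Regulators of mitochondrial biogenesis had 2 of 16 genes higher and 0 lower, with Twnk, the mitochondrial DNA helicase, at 0.50 (SE 0.13) from 2 c-Fos-deficient and 3 c-Fos-floxed papillomas and Myc at -0.39 (SE 0.18). Protein import had 2 of 14 higher and 0 lower, with Timm8b at 0.65 (SE 0.18). In that list Tomm6 was at -1.01 (SE 0.73), from -2.52 in specimen 6 beside -0.08 and 0.18 in the other c-Fos-deficient papillomas. Glycolysis ran the other way, with 12 of 14 genes below 0, 4 lower and 0 higher at this p and a median of -0.45, with Slc16a3, a lactate exporter, at -0.97 (SE 0.29) and Pfkm at 0.42 (SE 0.21). Its medians relative to the c-Fos-floxed mean were -0.24, -0.81 and -0.07 in c-Fos-deficient specimens 6, 8 and 9. In c-Fos-floxed specimens 2, 3 and 5 they were -0.01, 0.10 and 0.01. Specimen 8 was thus the lowest by far, and specimen 9 lay close to the c-Fos-floxed papillomas. The cytosolic ribosome had 1 of 28 higher and 1 lower and a median of -0.02, with Rps27l at 0.62 (SE 0.19) and Rpsa at -0.43 (SE 0.13).

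**Figure D5:**
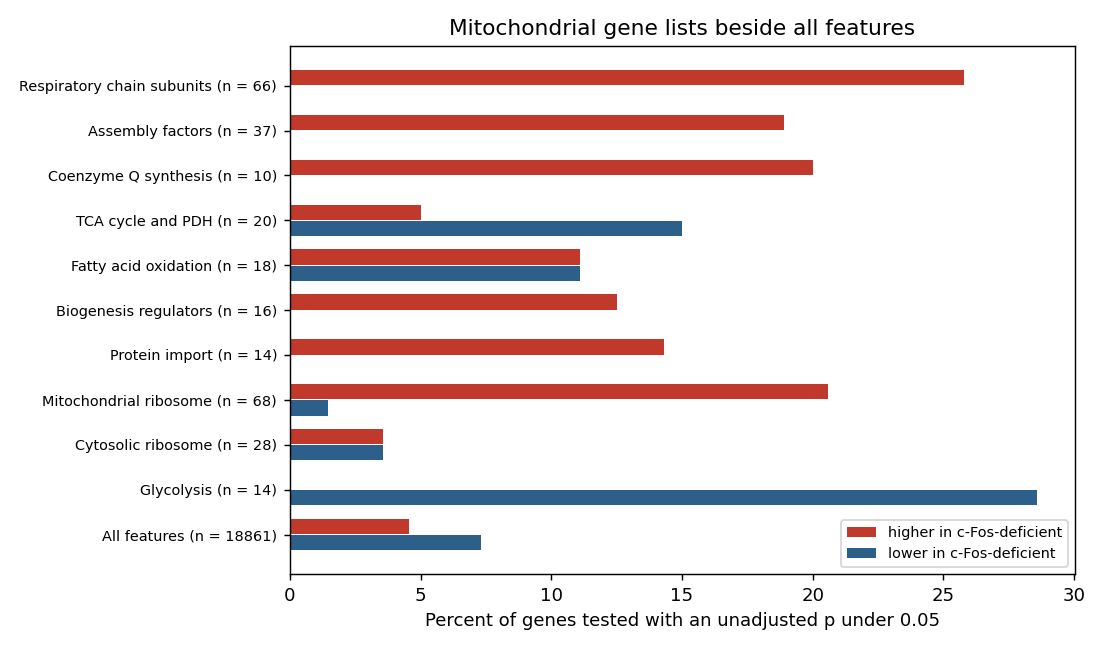
Bars give the percent of genes tested in each list with an unadjusted limma p under 0.05, higher or lower in c-Fos-deficient papillomas, with all features at the bottom (4.55% higher and 7.31% lower). Respiratory chain subunits have 25.8% higher and 0% lower, the mitochondrial ribosome 20.6% and 1.47%, and glycolysis 0% and 28.6%.

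Of 17 lists of cell type markers, 3 had specimen medians that were higher in all c-Fos-deficient than in all c-Fos-floxed papillomas, 1 had lower medians and 13 overlapped, among them endothelium, macrophages, neutrophils, T and NK cells, mast cells and Schwann cells. The higher lists were sebaceous gland, fibroblasts and skeletal muscle, and the lower one was basal keratinocytes. Specimen medians of sebaceous gland genes were 0.73, 1.46 and 0.49 in c-Fos-deficient papillomas, against 0.19, -0.04 and 0.07 in c-Fos-floxed papillomas, over 10 of 14 listed genes. The list was split. At an unadjusted p under 0.05 in limma 5 of 12 tested genes were higher and 1 lower, beside 4.55% and 7.31% of all features. Above 0 were 7 of the 12, beside 55.1% of all features. Among these 7 were the lipid enzymes Scd1 at 2.66 and Elovl6 at 2.11. The other 5 lay below 0, among them Dgat2 at -1.59 (SE 0.56), with values in only 2 c-Fos-deficient papillomas, and Fasn at -0.82 (SE 0.80). Fibroblast genes were at 0.65, 0.67 and 0.38 in c-Fos-deficient papillomas, against -0.11, -0.06 and 0.26 in c-Fos-floxed papillomas, over 7 of 10 listed genes. Of 8 tested genes 7 were above 0, beside 55.1% of all features, but the collagens Col1a1 and Col1a2 were only at 0.04 and 0.02. Mfap5 was at 1.21 and Dcn, with values in only 2 c-Fos-deficient papillomas, at 1.82. Fbln1 was at -1.29.

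Basal keratinocyte genes were at -0.29, -0.66 and -0.37 in c-Fos-deficient papillomas, against -0.02, 0.12 and -0.05 in c-Fos-floxed papillomas, over 9 of 9 genes. Here the keratins Krt5, Krt14 and Krt15 were at 0.15, 0.13 and 0.14, while the adhesion genes Col17a1, Itga6, Itgb4 and Lama3 lay between -1.44 and -1.08. Col17a1 differed by -0.72 in Cy5 and -2.16 in Cy3, and Itgb4 by -0.63 in Cy5 and -1.53 in Cy3. Itga6 differed by -1.35 in Cy5 and -1.37 in Cy3, and Lama3 by -1.27 in Cy5 and -1.60 in Cy3. The remaining genes of the list, Trp63 and Dst, were at -0.405 and -0.25. The median of hair follicle genes was high in specimen 8, at 1.36 over 7 of 15 listed genes, and within -0.06 and 0.06 in specimens 6 and 9. Single genes of that list were higher in all c-Fos-deficient papillomas. S100a3 had 3.42, 5.87 and 2.03 in c-Fos-deficient specimens 6, 8 and 9, against 0.59, 0.72 and 0.59 in c-Fos-floxed specimens 2, 3 and 5. Over the list 8 of 9 tested genes were above 0, beside 55.1% of all features. At an unadjusted p under 0.05 in limma 4 were higher, beside 4.55% of all features, and the median difference was 0.60. Of skeletal muscle genes, from a tissue rich in mitochondria, 11 of 12 tested were above 0, beside 55.1% of all features. Their median difference was 0.16. None of the 12 had an unadjusted p under 0.05 in limma. Without overlap 3 of 11 were higher, beside 10.9% of all features. Of these, Myl1 and Tnnt3 differed by -0.07 and -0.04 in Cy5 and by 0.37 and 0.39 in Cy3. Des differed by 0.08 in Cy5 and 0.38 in Cy3. Over the 12 skeletal muscle genes the median log2 ratios were -0.20 in c-Fos-deficient and -0.37 in c-Fos-floxed papillomas. The part of these cell types in the differences of the respiratory chain was not tested.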

How the data were processed

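Tail papillomas of 6 mice, per the series' design text, were measured on 12 2-colour arrays. The authors deposited 1 log ratio per probe and array, read here as log2 of papilloma over common RNA. Image analysis, normalization, log base and the treatment of empty cells are not stated by the labels' protocols. All 66 pairs of arrays correlated positively (r of at least 0.705), and dye-exchanged pairs of a specimen at r between 0.909 and 0.947, so no sign was turned. Papilloma over reference is the likely direction, from the high keratinocyte values. Arrays held values for 20811 to 26490 probes, and their number limits the precision. A natural log is not excluded by the range, and folds hold for base 2.

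Symbols came from the platform annotation and were updated through RefSeq (assembly GRCm38.p6). Of 20879 probes with a symbol, none had several. Probes of a gene measured in all specimens were averaged, otherwise the probe measured in most was used. Of the members, 61 rest on 1 probe and 5 on 2. Specimen means of 18861 features were compared with limma 3.58.1 in R 4.3.3 (lmFit, eBayes, two-sided, Benjamini-Hochberg over all features, threshold 0.05) and the procedure was tested on simulated data. Python 3.11.15, pandas 2.3.3 and matplotlib 3.10.9 made tables and figures. Promoters were RefSeq windows.

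The members and lists were chosen with earlier results of these data known. Named genes were Fos, the 3 members of each complex with the smallest unadjusted p (all in small complexes), the extremes of each complex, isoform families, members with discordant probes and the leading gene of each list and direction. Ndufa5, Ndufa11, Ndufa13, Ndufb3, Ndufb10, Ndufb11, Ndufc1, Ndufc2, Ndufs1, Ndufs3, Ndufs4, Ndufs6, Cox5a, Atp5b, Atp5e, Atp5h, Atp5j, Atp5k, Atp5o, Cox4nb and the single cell type markers were named after their values were seen. The parts of complexes I and V were also grouped after values were seen. Protein sequences of the isoforms were not analysed here.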

Additional observations from a re-analysis of the deposited data

How the results depend on the processing

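No paired analysis was possible because the groups share no specimen number. Over 20 alternatives the median difference kept its sign in all 5 complexes, from 0.14 to 0.30 in complex I, 0.42 to 0.69 in II, 0.036 to 0.21 in III, 0.11 to 0.29 in IV and 0.076 to 0.19 in V. The lowest of complex III came with array weights (0.036, array weight 7.77 for specimen 2), and complex IV moved to 0.25 with quantile normalization, 0.24 in Cy5 alone and 0.29 as a mean. Membership without Cox4nb and Atp5s was added after seeing the data. Fitting the 12 arrays singly, with dye as a covariate and specimen as a random effect, 385 features and 3 members (Cox7a2, Ndufb4 and Ndufs7) had an adjusted p under 0.05, at an assumed correlation of 0.596 and counting arrays of a specimen partly as replicates. In Cy3 alone 1 feature passed. Features higher at an unadjusted p under 0.05, 859 in all, were 1327 with quantile normalization and 1689 with array weights, and lower ones, 1379 in all, 2302 with array weights. Leaving out each specimen gave 468 to 1342 features higher, 813 to 1980 lower, 9 to 20 members higher and 0 to 1 lower (Atp5d, without specimen 9).

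The members whose sign turned under an alternative are given here, and the cause was not tested. With array weights Atp5g3 was at -0.11, Cox6a1 at -0.088, Cox6b1 at -0.18, Ndufv1 at 0.0057 and Uqcrb at -0.022. Centred arrays gave Ndufa11 0.0088 and Ndufa13 0.012, and quantile normalization Ndufa11 0.021, Ndufa13 0.10 and Ndufv1 0.015. In Cy3 alone Atp5g3 was at -0.18, Atp5o -0.10, Cox4i1 -0.10, Cox7a2l -0.046, Cox8a -0.030, Ndufa13 0.058 and Ndufs6 -0.0077. In Cy5 alone Atp5g2 was at 0.21, Atp5h 0.13, Cox6b1 -0.068, Ndufa11 0.086, Ndufab1 0.0625, Ndufs4 -0.014 and Uqcrfs1 0.024. Ndufs6 was at -0.10 with values from 1 or 2 arrays, and probe 1 of Ndufa3 at -0.16. Leaving out each specimen gave ranges of -0.30 to 0.05 (Atp5b), -0.51 to 0.033 (Atp5d), -0.24 to 0.040 (Atp5g2), -0.17 to 0.18 (Atp5g3), -0.36 to 0.12 (Atp5h), -0.061 to 0.092 (Atp5o), -0.014 to 0.13 (Cox4i1), -0.10 to 0.17 (Cox6a1), -0.090 to 0.30 (Cox6a2), -0.086 to 0.18 (Cox6b1), -0.0655 to 0.26 (Cox7a2l), -0.0005 to 0.24 (Cox8a), -0.10 to 0.08 (Ndufa11), -0.18 to 0.13 (Ndufa13), -0.010 to 0.32 (Ndufb7), -0.41 to 0.35 (Ndufv1) and -0.10 to 0.31 (Uqcrc1).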
